A study of Macaca mulatta with 6 samples.

Results

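The CXC chemokines are small secreted proteins that guide leukocytes, named for a pair of cysteines separated by 1 other residue. The genes described here are CXCL1, CXCL2, CXCL3, CXCL5, CXCL6, IL8 (the older name of CXCL8), CXCL10, CXCL11, CXCL12 and CXCL16. They were chosen by name and matched to the gene symbols of the deposited table. Of these 10 genes 9 were found, among 24932 genes in all, as 15 of 44605 transcripts, and CXCL2 is not analysed here.

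RNA was measured in RF/6A, a rhesus macaque cell line described as choroidal endothelial, grown to confluence on porous culture inserts in medium with bovine serum. All cells then received 50% human serum for 4 hours. In the control group (3 libraries) the serum had been heat-inactivated, and in the other group (3 libraries) it was normal serum, whose complement is active and can form the pore called the membrane attack complex (the labels name this group MAC). The comparison asks which CXC chemokine transcripts differ with the kind of serum. No group had complement removed by another means, so active complement and any other heat-sensitive part of serum cannot be told apart. The labels do not say whether replicates were separate cultures, and the p-values thus measure no more than how these libraries vary, which may be technical variation. In such bulk samples, fewer cells of a type and less RNA per cell cannot be told apart.

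As background, CXC chemokines fall into groups by sequence and receptor. CXCL1, CXCL2, CXCL3, CXCL5, CXCL6 and IL8 carry a glutamate-leucine-arginine (ELR) motif before the cysteines, act through CXCR2 (CXCL6 and IL8 also through CXCR1), attract neutrophils and promote blood vessel growth. CXCL10 and CXCL11 lack that motif, are induced by interferon and bind CXCR3. CXCL12 binds CXCR4 and the scavenging receptor CXCR7, and CXCL16 is made as a membrane-bound ligand of CXCR6 that proteases can release. Endothelial and stromal cells make many of these proteins when NF-kappaB is active.

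Among the ELR chemokines, CXCL1, CXCL6 and CXCL3 fell in normal serum, by 6.93-fold, 3.68-fold and 2.27-fold in mean FPKM (fragments of a transcript scaled by its length and by the size of the library, n = 3 per treatment), while the mean of IL8 was 1.19-fold higher. CXCL10 and CXCL16 were not past the threshold, CXCL11 was near 0, and CXCL5 and CXCL12 were listed at 0 in all libraries. Of the 6 members with a mean of at least 1 FPKM, 3 were called lower and 1 higher (limma on log2(FPKM + 1), Benjamini-Hochberg adjusted p under 0.05). Of all 11818 genes tested, 26.1% were called lower and 27.8% higher, 54.0% in either direction, so a call as such is common in these libraries. Calls with a log2 change of -1 or less were rarer, at 2.56% of genes, and CXCL1, CXCL6 and CXCL3 were among them. The median log2 change was -0.82 over the 6 members and 0.01 over all genes tested. After rescaling each library to the same total FPKM, which moved the median of all genes to -0.12 and the share of calls that were higher from 51.6% to 34.7%, 4 members were called lower and 0 higher, against 31.0% and 16.5% of all genes.

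CXCL1, a neutrophil attractant first known as a melanoma growth factor, stood at 372, 353 and 395 FPKM in replicates 1, 2 and 3 of heat-inactivated serum. In normal serum it stood at 47.9, 65.0 and 48.7 FPKM. The groups lay far apart, and replicate 2 was the highest library in normal serum. The mean went from 373 ± 21.3 to 53.8 ± 9.64 FPKM (SD, n = 3), a log2 change of -2.78 with a standard error of 0.12 (limma, adjusted p = 4.83e-06). This fall was larger than those of CXCL6 and CXCL3, in that the 95% intervals of the log2 change did not overlap (-3.06 to -2.50 for CXCL1, -2.11 to -1.63 for CXCL6 and -1.40 to -0.90 for CXCL3).

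CXCL6, also called granulocyte chemotactic protein, was the most abundant member per length in heat-inactivated serum, at 3098, 2391 and 2577 FPKM. In normal serum it stood at 778, 712 and 700 FPKM. The groups lay far apart, and replicate 1 was the highest library in each. The mean went from 2689 ± 366 to 730 ± 41.9 FPKM (SD, n = 3), a log2 change of -1.87 with a standard error of 0.10 (limma, adjusted p = 1.39e-05). CXCL3, a close relative of CXCL1, went from 96.7, 72.7 and 79.0 FPKM in the control libraries to 36.4, 34.8 and 38.3 FPKM in normal serum. Its groups did not overlap either, and its normal serum libraries lay close together. The mean went from 82.8 ± 12.4 to 36.5 ± 1.73 FPKM (SD, n = 3), a log2 change of -1.15 with a standard error of 0.11 (limma, adjusted p = 1.35e-04).

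IL8, the best studied neutrophil chemokine, stood at 976, 996 and 1017 FPKM in heat-inactivated serum and at 1074, 1251 and 1222 FPKM in normal serum. The groups did not overlap, but replicate 1 in normal serum was only a little above the highest control library. The log2 change was 0.24 with a standard error of 0.07 (95% interval 0.08 to 0.41, limma, adjusted p = 0.0230). The IL8 call ended when each library was rescaled to the same total FPKM (log2 change 0.10, adjusted p = 0.437), with quantile normalization (log2 change -0.07, adjusted p = 0.428), when only the more abundant transcript was used (adjusted p = 0.397), and on leaving out 1 library, unless it was replicate 1 of normal serum (otherwise adjusted p from 0.0512 to 0.0780). A small rise, a small fall and no change are therefore all within what the scalings gave for IL8, whereas CXCL1, CXCL6 and CXCL3 were called lower in each of the 18 alternatives tried. Not all of these could move the 3 genes. Using only the more abundant transcript, or leaving out transcripts under 300 bases, left their values as they were. Several others kept the log2 change and altered only its error or the adjustment. Of the 6 tested members, 3 lay wholly below and 1 wholly above their control libraries, 4 in all. Of all genes tested 30.5% lay wholly below and 32.1% wholly above, 62.6% in all.

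**Figure D1:**
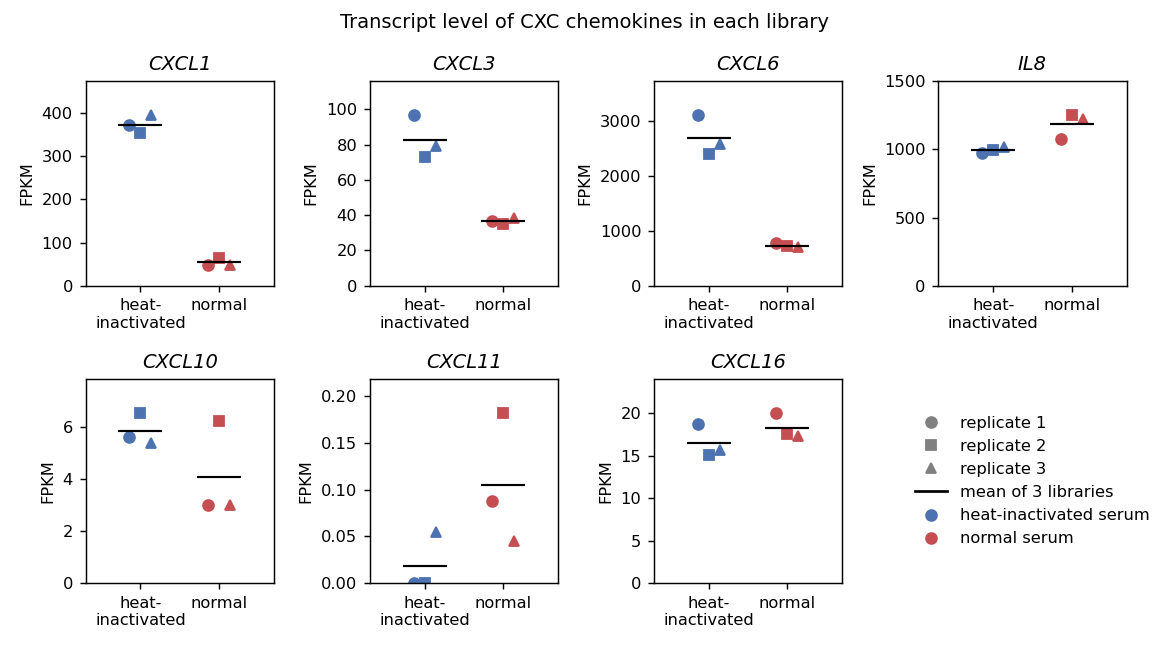
Transcript level in FPKM (vertical axes from 0, one scale per gene) of the 7 members above 0, by serum; each point is 1 library, its shape the replicate number, and the line the mean of 3 libraries. CXCL1, CXCL3 and CXCL6 separate widely, IL8 narrowly, and CXCL10 in replicate 2 of normal serum lies with the control libraries.

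**Figure D2:**
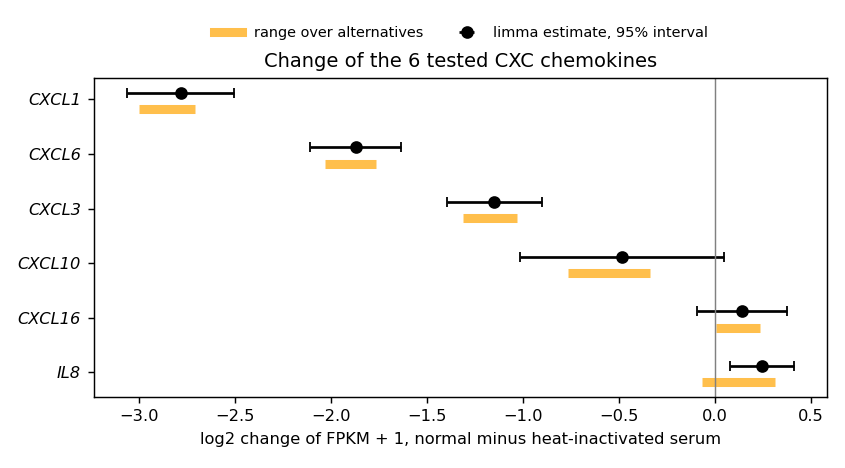
Log2 change of FPKM + 1 (normal minus heat-inactivated serum) of the 6 tested members, with the 95% interval of the limma estimate in black and the range over the alternatives tried in orange. CXCL1, CXCL6 and CXCL3 lie below -0.90 throughout, and the IL8 range crosses 0.

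In the replicate 1 libraries of both treatments the lowest values of the table did not step in whole fragments, as they did in the other libraries. Within replicates 2 and 3 alone, CXCL1 changed by -2.71, CXCL6 by -1.81 and CXCL3 by -1.03 on the log2 scale (limma, adjusted p = 2.33e-04, 1.03e-04 and 6.28e-04), and IL8 by 0.30 (adjusted p = 0.0135). With a single replicate 1 library in each group, no test was run on these. Their values, given above, moved the same way for these 4 genes.

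The mix of ELR chemokine transcripts thus differed between the treatments. Summed over CXCL1, CXCL3, CXCL6 and IL8, with CXCL5 listed at 0, the control libraries held 4543, 3813 and 4068 FPKM and the normal serum libraries 1937, 2063 and 2010 FPKM. CXCL6 made up 68.2%, 62.7% and 63.4% of that sum in heat-inactivated serum and 40.2%, 34.5% and 34.8% in normal serum. IL8 made up 21.5%, 26.1% and 25.0% in the control libraries and 55.5%, 60.6% and 60.8% in normal serum. CXCL1 went from 9.05% ± 0.777 to 2.68% ± 0.406 (SD, n = 3), while CXCL3, the least abundant, held 1.99% ± 0.119 and 1.82% ± 0.118. Summed over its models, IL8 thus stood above CXCL6 per length in every normal serum library and below it in every control library. Shares are taken within a library, so a factor per library does not move them. The order in normal serum does depend on the summing: the single CXCL6 model stood above each of the 2 IL8 models taken alone in all 3 normal serum libraries.

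The log2 ratio of IL8 to CXCL1 was 1.39, 1.50 and 1.36 in heat-inactivated serum and 4.46, 4.25 and 4.62 in normal serum. The groups were separated by 3.03 on average, and by far more than the spread within either (SD 0.07 and 0.19). Both genes were chosen with earlier results of these data known. The separation thus restates their changes given above and is no further evidence. An exact two-sided permutation test over libraries gave p = 0.1, the smallest value that 3 libraries against 3 can give, so the test cannot reach the threshold in this design.

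**Figure D3:**
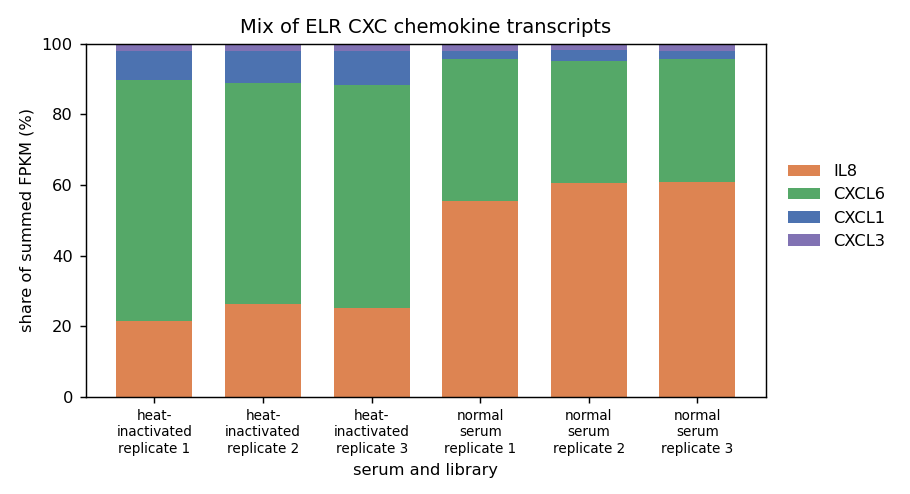
Share (percent, from 0 to 100) of the summed FPKM of the ELR chemokines held by IL8, CXCL6, CXCL1 and CXCL3 in each of the 6 libraries. IL8 holds 21.5% to 26.1% in heat-inactivated serum and 55.5% to 60.8% in normal serum.

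At the level of single transcripts, CXCL1, CXCL6 and CXCL3 each rest on 1 transcript model above 0, of 1017, 324 and 312 bases on chromosome 5. Of the 15 member models 12 have a length that is a multiple of 3, against 49.1% of all transcripts, and those of CXCL6 and CXCL3 and the shorter IL8 model are also short for a whole messenger RNA and may lack untranslated regions. FPKM of such short models depends strongly on how the fragment length is allowed for, so levels between members are less certain than changes within one. IL8 has 2 models, of 387 and 1623 bases. The shorter stood at 429, 595 and 571 FPKM in the control libraries and 488, 628 and 695 FPKM in normal serum, and the longer at 547, 401 and 446 FPKM and then 586, 623 and 527 FPKM. For each model the groups overlapped, although for their sum they did not. In heat-inactivated serum the models varied more between libraries (SD 89.8 and 74.9 FPKM) than their sum did (20.3 FPKM). In a limma fit over 15719 transcripts, 3 of the 7 tested member transcripts were called lower (background 18.6%), those of CXCL1, CXCL6 and CXCL3, and 0 were called higher (background 21.0%, and 1 at an unadjusted p under 0.05). The longer IL8 model had a log2 change of 0.32 (adjusted p = 0.0881) and the shorter 0.18 (adjusted p = 0.445).

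In the authors' deposited table, made with Cuffdiff, the same 3 transcripts passed all marks for level, fold and q-value as lower, against 3.49% of the transcripts with a completed test, and 0 passed them as higher, against 3.14%. The authors' deposited table gives log2 changes of -2.79 for CXCL1, -1.88 for CXCL6 and -1.18 for CXCL3, each with a q-value of 2.23e-04. For the longer IL8 model the authors' deposited table gives 0.32 with a q-value of 0.00650, and for the shorter 0.18 with a q-value of 0.705. For CXCL10 the authors' deposited table gives -0.52 with a q-value of 0.00286, where limma did not call the gene.

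Near-identical copies cannot be told apart in this table. CXCL5, an ELR chemokine whose closest relative is CXCL6, has 3 models, 1 on chromosome 5 and 2 on an unplaced scaffold, all listed at 0 in every library and without a test in the authors' deposited table. CXCL3 has a further model on an unplaced scaffold, also listed at 0. A value of 0 in this table can be a failed estimate, so these are given as listed at 0 only. CXCL12, the stromal ligand of CXCR4 and CXCR7, has 2 models on chromosome 9, likewise listed at 0 in all 6 libraries.

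The ligands of CXCR3 were low. CXCL10, an interferon-inducible attractant of T cells, stood at 5.59, 6.53 and 5.37 FPKM in heat-inactivated serum and at 3.01, 6.22 and 3.00 FPKM in normal serum. Replicate 2 of normal serum lay among the control libraries, and the other 2 lay well below them. The log2 change of -0.48 (standard error 0.23, 95% interval -1.02 to 0.05) was not past the threshold (limma, adjusted p = 0.109). Without normal serum replicate 2 it was -0.77 and was called (adjusted p = 0.00236), and it was also called once libraries had been rescaled to a common total (adjusted p = 0.0453). Where the worth of 1 fragment could be read from other transcripts of like length, CXCL10 rested on about 109 and 77.8 fragments in replicates 2 and 3 of heat-inactivated serum and 93.1 and 53.0 in those of normal serum.

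CXCL11, which shares CXCR3 with CXCL10 and also binds CXCR7, was at 0, 0 and 0.0548 FPKM in heat-inactivated serum and 0.0880, 0.182 and 0.0450 FPKM in normal serum. The value in replicate 2 of normal serum is about that of 2.00 fragments of its 917-base transcript, so no difference was detectable at this depth. CXCL16, the membrane-bound ligand, stood at 18.8, 15.1 and 15.6 FPKM in heat-inactivated serum and 20.0, 17.5 and 17.3 FPKM in normal serum. The groups overlapped, and the log2 change was 0.14 (95% interval -0.09 to 0.37, limma, adjusted p = 0.266).

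Most of the ELR chemokine genes lie together on chromosome 5. In the RefSeq gene order of assembly T2T-MMU8v2.0, which is not necessarily the build of the deposited table, the named protein-coding genes run CXCL3, PPBP, PF4, CXCL1, PF4V1, CXCL6 and IL8, with unnamed loci between some of them. PF4V1, a variant of platelet factor 4, was not a member but sits between CXCL1 and CXCL6. It stood at 180, 141 and 151 FPKM in heat-inactivated serum and 37.2, 40.7 and 38.5 FPKM in normal serum, a log2 change of -1.98 (limma, adjusted p = 7.95e-06). It is a single short model, and whether it shares reads with a neighbouring CXC gene was not tested, so it may not be a separate lower gene. The platelet chemokines PPBP and PF4 were listed at 0, save for PF4 in 1 library (0.422 FPKM). The members CXCL3, CXCL1 and CXCL6 of this row were thus lower while IL8, at its end, was not. Of the genes just outside, MTHFD2L beside CXCL3 was not called (2.09 and 2.54 FPKM). RASSF6 beside IL8 was not tested, being under 1 FPKM, and its means were 0.496 FPKM in heat-inactivated and 0.110 FPKM in normal serum. CXCL10 lies between CXCL11 and CXCL9 in a separate group on the same chromosome, and CXCL9 was listed at 0.

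**Figure D4:**
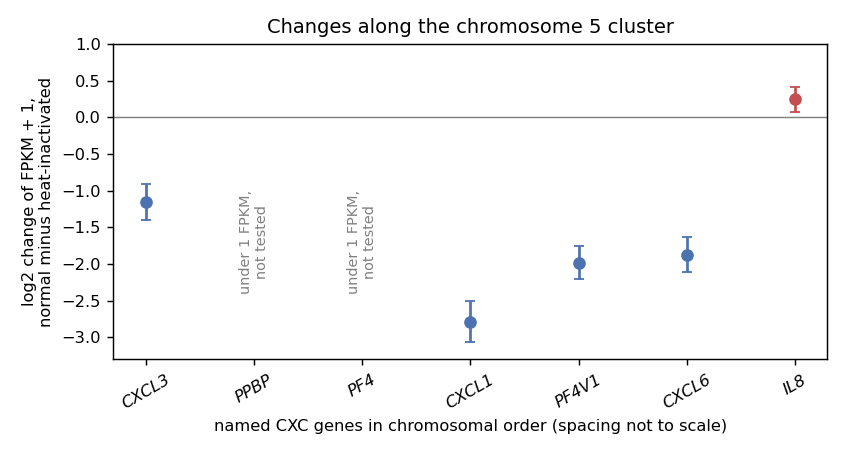
Log2 change of FPKM + 1 (normal minus heat-inactivated serum) with its 95% interval for the named CXC genes of the chromosome 5 cluster, in chromosomal order and not to scale; PPBP and PF4 were under 1 FPKM, and PF4V1 may share reads with a neighbour, which was not tested. CXCL3, CXCL1, PF4V1 and CXCL6 lie at or below -1.15 and IL8 at 0.24.

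Of 8 receptors for CXC chemokines in the table, CXCR7 alone reached a mean of 1 FPKM. CXCR7, which takes up CXCL12 and CXCL11 without classical signalling, went from 1.42, 1.42 and 1.21 FPKM to 5.42, 6.47 and 4.82 FPKM. Its groups did not overlap, and it rose 4.13-fold in mean FPKM (log2 change 1.48, limma, adjusted p = 7.12e-05), while CXCL12 and CXCL11 were at or near 0. CXCR2, the receptor of the ELR chemokines, stood at 0.161, 0 and 0.0765 FPKM in the control and 0.187, 0 and 0 FPKM in normal serum. CXCR4 was at 0 to 0.0450 FPKM in the control and 0.0739 to 0.208 FPKM in normal serum, and CXCR3 was listed at 0.

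Transcripts of proteins that cleave, release or hold chemokines at the cell surface moved in both directions. Of 13 tested genes 5 were higher and 6 lower, or 3 and 7 after rescaling to the same total FPKM. Of all genes 27.8% were higher and 26.1% lower, or 16.5% and 31.0% after that rescaling, and the same shares stand beside the counts of the other lists. MMP9, a gelatinase that trims IL8 and other chemokines, rose from 2.30 ± 0.291 to 44.9 ± 4.95 FPKM, and the collagenase MMP1 from 62.2, 44.2 and 63.8 FPKM to 152, 174 and 170 FPKM. MMP2, which can inactivate CXCL12, fell from 48.5 ± 4.99 to 26.7 ± 0.706 FPKM. Genes of heparan sulphate, the sugar chain that holds chemokines at the surface, went both ways. The carrier SDC1 rose 1.85-fold. The others are named after their values were seen. The carriers SDC2 and SDC3 fell from 192 ± 12.2 to 147 ± 8.62 FPKM and from 19.1 ± 0.751 to 11.7 ± 0.524 FPKM, as did NDST1, which sulphates the chains, from 27.7 ± 2.23 to 18.5 ± 1.09 FPKM. SDC4 was not past the threshold (178, 151 and 151 FPKM, then 176, 161 and 152 FPKM). The glypican gene GPC1 and EXT1, which extends the chains, rose by 0.31 and 0.39 on the log2 scale, and neither was called after rescaling to the same total FPKM. Likewise named afterwards, ADAM10, a protease that sheds CXCL16, fell from 64.4 ± 2.93 to 44.9 ± 1.56 FPKM, while ADAM17 was not past the threshold (32.0 ± 1.61 and 27.9 ± 2.67 FPKM, limma, adjusted p = 0.0816).

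For NF-kappaB, the transcription factor on which many ELR chemokine genes depend, only transcripts of its subunits and regulators were measured, not its activity. Of 14 tested genes 9 were higher and 3 lower, or 6 and 4 after rescaling to the same total FPKM. The inhibitor TNFAIP3 rose 2.28-fold, NFKBIB 2.24-fold, and the subunits NFKB1 and RELB 2.02-fold and 1.71-fold. The 3 lower genes, named after their values were seen, all encode regulators. The inhibitor NFKBIA fell from 131 ± 0.279 to 84.0 ± 12.3 FPKM, NFKBIZ, a nuclear cofactor of NF-kappaB, from 50.3 ± 2.20 to 29.0 ± 5.61 FPKM, and TNIP1, a partner of TNFAIP3, from 62.6 ± 6.96 to 47.5 ± 4.51 FPKM.

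Many chemokine messages are short-lived and carry AU-rich elements bound by decay and stability factors. Of 8 such factors listed, ZFP36 and ZFP36L1 were not found by symbol, so their transcripts are not described here. Of 6 tested factors 4 were higher and 1 lower, or 2 and 1 both after rescaling to the same total FPKM and with quantile normalization. MAPKAPK2, a kinase that stabilises such messages, rose 1.40-fold, and the binding proteins ELAVL1 and HNRNPD 1.31-fold and 1.33-fold, the latter 2 not past the threshold in some alternatives (adjusted p up to 0.0508 and 0.160). KHSRP, named after its values were seen, rose by 0.23 on the log2 scale, and was not called after rescaling, with quantile normalization or without normal serum replicate 2. ZC3H12A, an RNase that degrades inflammatory messages, fell from 25.4 ± 1.65 to 14.5 ± 1.05 FPKM (limma, adjusted p = 2.15e-04).

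In the interferon pathway, which drives CXCL10 and CXCL11, 0 of 10 tested genes were higher by limma (0 at an unadjusted p under 0.05) and 5 were lower, against 27.8% and 26.1% of all genes. ISG15, named after its values were seen, was called higher within replicates 2 and 3 alone and without heat-inactivated serum replicate 1, and IRF1 without normal serum replicate 1. IFIT1, an interferon-induced RNA-binding protein, fell from 10.3 ± 0.605 to 1.60 ± 0.352 FPKM, and MX1, an antiviral GTPase, from 10.7 ± 0.177 to 1.91 ± 0.443 FPKM. The receptor chain IFNAR1 fell to 0.370 of its control mean and STAT2 to 0.430, and IFNGR1, named after its values were seen, by 0.38 on the log2 scale. IRF1, a direct regulator of CXCL10 that is likewise named after its values were seen, was not past the threshold (22.8 ± 0.825 and 27.1 ± 5.17 FPKM). Within normal serum, IRF1 and CXCL10 were both highest in replicate 2 (32.8 and 6.22 FPKM). That library was also the highest of its group for CXCL1, IL8, IFIT1 and MX1, but not for CXCL6 or CXCL3. A link between IRF1 and CXCL10 was not tested.

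**Figure D5:**
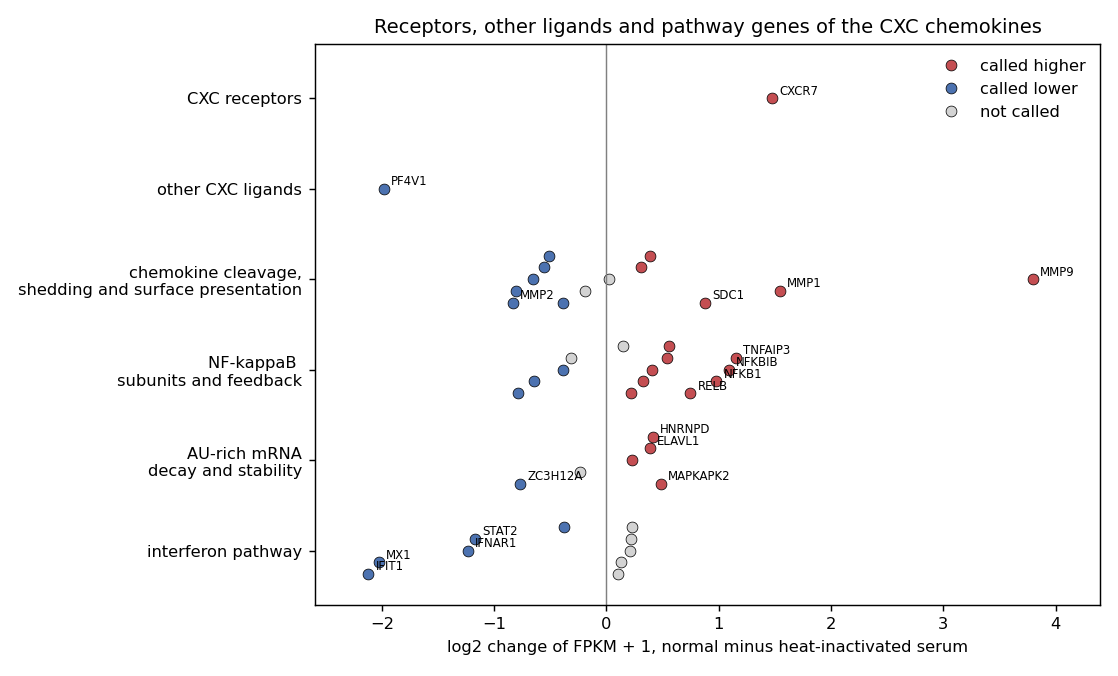
Log2 change of FPKM + 1 (normal minus heat-inactivated serum) of each tested gene of the 6 pathway lists, 1 point per gene, red where called higher, blue where called lower and grey where not called; labelled genes are those chosen by the rule for naming. CXCR7 and PF4V1 are the single tested genes of their lists, and the NF-kappaB list has 9 red and 3 blue points.

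Likeness of pattern over the 6 libraries was ranked by Pearson correlation of log2(FPKM + 1), among tested genes with a symbol and outside the members. The genes most like CXCL1 were IFIT1 (r = 1.00), TXNIP, the thioredoxin-interacting protein (r = 0.999), and INHBE, an inhibin subunit (r = 0.999). In TXNIP, as in CXCL1, normal serum replicate 2 was the highest of its group (18.5, 30.5 and 22.1 FPKM). Those most like IL8 were SRSF5 (r = 0.994), NECAP2 (r = 0.992) and SLK (r = 0.991), with small rises of 0.17, 0.19 and 0.33 on the log2 scale. The SRSF5 change was -0.01 with quantile normalization and 0.03 after rescaling to the same total FPKM. The NECAP2 change was 0.09 and 0.05 in these settings and was not called (limma, adjusted p = 0.216 and 0.698). The libraries form 2 groups by treatment, which by itself brings such correlations near 1 for a gene that changes, so they are a description only.

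The labelled cell type and markers of other cells moved with the treatment as well. Of 9 endothelial markers found, 2 were tested and were higher (PECAM1 and ESAM), the list summed to 6.49 to 7.47 FPKM in the control and 13.6 to 15.4 FPKM in normal serum, and CDH5 (VE-cadherin) was at 0 in all control libraries and at 0.0185, 0 and 0.0146 FPKM in normal serum. The receptor gene KDR, another defining marker, had means of 0.370 FPKM in the control and 0.105 FPKM in normal serum. VWF went the other way, with means of 0.172 and 1.05 FPKM. Neither was tested, as both fell under the filter of 1 FPKM. The labelled cell type is thus only weakly marked. Of 8 fibroblast and mural markers 8 were lower, the list summing to 6703 to 7253 FPKM in the control and 3160 to 3299 FPKM in normal serum, among them DCN, decorin. Leukocyte markers summed to 14.5 to 19.0 and 13.5 to 16.2 FPKM, with PTPRC, which all leukocytes carry, at or below 0.0509 FPKM in every library. Of 3 leukocyte markers tested 0 were higher and 1 was lower. This was LYZ, with means of 7.82 and 5.17 FPKM (limma, adjusted p = 0.0320) and overlapping groups. CD68, with means of 7.32 and 8.62 FPKM, was not called. Of 4 epithelial markers found, 1 was tested and was lower (CDH1). The part of the falling fibroblast and mural markers in the falls of CXCL1, CXCL6 and CXCL3 was not tested.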

How the data were processed

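FPKM values of every transcript in 6 libraries of polyadenylated RNA were deposited by the authors in 1 table. The submitters' processing notes name TopHat2 2.0.7, Cufflinks 2.1.1 and Cuffdiff 2.1.1, and which build served was not given in the sources used here. Per the file headers, the authors also deposited a log2 fold change, a p-value, a q-value and marks of passing their limits for each transcript. FPKM of transcripts sharing a symbol were summed, and of 7008 identifiers lacking one, 256 were named from a gene name table.

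Without counts, the test was limma 3.58.1 (R 4.3.3, trended variance) on log2(FPKM + 1), over the 11818 genes whose mean reached 1 FPKM, with Benjamini-Hochberg adjustment over all of them. That scale understates changes of low genes. Folds are ratios of mean FPKM, and errors are SD over 3 libraries. The fit was also run on simulated data as a check of the procedure. Far fewer genes changed there than were called here, so it gives no error rate for these libraries. Summed FPKM was 852828, 867794 and 1007950 in replicates 1, 2 and 3 of heat-inactivated serum. In those of normal serum it was 1010690, 1016470 and 980877, so the lowest totals were both in the control group. In replicates 2 and 3, 1 fragment of a 1000-base transcript was worth 0.0694 to 0.0841 FPKM, and no such step was read from replicate 1. The kit named in the labels does not mark strand.

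Named were all members and up to 4 called genes of lowest adjusted p in each pathway list. Also named were the 3 genes with a symbol, outside the members, most correlated with CXCL1 and with IL8. Other genes are marked as named after their values were seen, save markers, neighbouring genes and receptors. A gene of the interferon list is not reported here. The members and lists were chosen with earlier results of these data known. Alternatives varied the pseudocount, filter, scaling, variance model, summing and libraries.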

Additional observations from a re-analysis of the deposited data

How the results depend on the processing

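The falls of CXCL1, CXCL6 and CXCL3 kept their direction and call in all 18 alternatives, with log2 changes from -3.00 to -2.71, -2.03 to -1.77 and -1.31 to -1.03. The alternatives on transcript choice and length could not change the values of these genes, as each rests on 1 model above 0. The number of members called higher, 1 in the main test (IL8), was 0 with rescaling to the same total FPKM, with quantile normalization and with the highest transcript for each gene, and ranged from 0 to 1 when 1 library was left out. The IL8 change was reversed with quantile normalization (-0.0683), as was that of SRSF5 (-0.00857). The cause was not tested. CXCL10 was called in 3 of 17 alternatives (adjusted p from 0.00236 to 0.323), and CXCL16 in 0 of 18 by limma (adjusted p from 0.0565 to 0.987). Of the pathway genes 19 were called higher and 16 lower, and 12 and 18 with rescaling to the same total FPKM. Of all genes 27.8% were called higher and 26.1% lower, and 16.5% and 31.0% with that rescaling. The number of member transcripts called higher, 0 in the main test, was 1 within replicates 2 and 3 only and ranged from 0 to 1 when 1 library was left out. With the replicate number as a block (replicate block), 3 tested members besides CXCL10 (log2 change -0.48, adjusted p = 0.0382) were called lower and 1 higher. Same-numbered libraries did not deviate together throughout (correlations of 0.193, 0.0333 and 0.00593 for numbers 1, 2 and 3), so the numbers are not taken to pair the libraries. Depth limits CXCL11, at 2.00 fragments or fewer where it could be read.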

Other observations

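Genes near this family, named after their values were seen, also moved in both directions. ACKR4, an atypical receptor that takes up CC chemokines, stood at 33.3, 25.7 and 26.2 FPKM in heat-inactivated serum and 20.2, 18.9 and 18.4 FPKM in normal serum (log2 change -0.54, limma, adjusted p = 0.00397). Among CC chemokines, CCL13 fell from 20.3 ± 4.67 to 3.96 ± 0.0953 FPKM and CCL5 from 9.76 ± 3.40 to 3.70 ± 0.840 FPKM. CCL3, a macrophage inflammatory protein, rose from 0.752 ± 0.353 to 6.36 ± 0.441 FPKM, and CCL20, which attracts cells that carry CCR6, from 5.48 ± 0.735 to 8.92 ± 0.632 FPKM. The direction of each of these 5 genes was the same within replicates 2 and 3 alone.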
